A study of Sus scrofa with 4 samples.

Results

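The expressed ZNF genes of porcine 4-cell embryos are the subject here: genes whose symbol is ZNF followed by a number and whose mean over the 4 libraries was at least 100 counts. The deposited table has 35248 rows, of which 251 carry such a symbol, and 139 of these met the minimum. The genes were thus chosen by their mean count over all libraries, so their levels are given as a description and not tested, while the contrast between the treatments played no part in the choice. All embryos were parthenogenetic, that is, they grew from unfertilised oocytes that an electric pulse had activated, were held in cytochalasin B for 3 h and were cultured in PZM-3 medium for 48 h. Treated embryos received Bobcat339 at 50 µM, a small-molecule cytosine derivative used against the TET dioxygenases (2 libraries), and control embryos received the solvent DMSO (2 libraries). The study asked how the inhibitor alters gene expression in these embryos. As parthenotes, the embryos of both groups lack a paternal genome, and the sources used here do not say how many embryos a library holds.

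ZNF genes encode proteins with zinc fingers, short loops folded around a zinc ion. In the classical C2H2 type a row of fingers reads a stretch of DNA. Many of these proteins also carry a KRAB domain, which recruits the co-repressor TRIM28 and through it the histone methyltransferase SETDB1, and this machinery silences transposable elements and protects DNA methylation at imprinted regions in the mouse and human embryo. Other ZNF proteins have no such role and act in ribosome assembly, RNA processing, the spindle or DNA repair.

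The libraries held 14681221 and 13568525 counts for Bobcat339 and 14390560 and 13852262 counts for the control. The level of 3 counts, the limit that a count of 0 allows, was 0.204 to 0.221 CPM (counts relative to the total of the library), which covers counting error alone. The ZNF genes took 0.994% and 0.980% of the counts in the Bobcat339 libraries and 1.04% and 0.963% in the control libraries. Markers of cell types were read to describe the material. They cannot check the stage label, since no other stage is among the libraries. The summed level of 10 oocyte and early embryo markers lay between 12098 and 13714 CPM in the Bobcat339 libraries and between 11599 and 13511 CPM in the control libraries. Most of this sum came from BMP15 and WEE2, with means of 4268 and 4149 CPM over the 4 libraries. Others were far lower, with OOEP at 32.5 CPM, ZP3 at 24.9 CPM and ZAR1 at only 0.829 CPM. DPPA3, KHDC3 and NLRP5, also on the list of 13 symbols, were not found under these names. The 9 tested cumulus and granulosa cell markers summed to 122 and 163 CPM with Bobcat339 and 131 and 144 CPM in the controls. Most of this sum came from VCAN, with 73.8 and 74.1 CPM with Bobcat339 and 57.6 and 81.8 CPM in the controls, and VIM, with 27.4 and 54.3 CPM with Bobcat339 and 43.9 and 33.2 CPM in the controls. Of the 14 markers of this list in the table AMH was the only one at 0 in every library, and the part of such cells in the results was not tested. The 4 tested blood and immune cell markers summed to at most 12.8 CPM. Whether the replicates came from separate cultures is not stated in the labels, so p-values measure only how far these samples spread, and that spread may be technical.

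The name matched the deposited annotation for most of the genes. Of the 139, 119 (85.6%) carry the transcription factor family label zf-C2H2 in the authors' deposited table, against 2.82% of the 9708 rows that reached the same mean count. Another 9 carry the label Others, among them ZNF207 and ZNF706. ZNF131, which has a BTB domain, is labelled ZBTB. The remaining 10 have no family label, among them ZNF106, ZNF462 and the SUMO ligase ZNF451. ZNF638 was the only one of the 139 annotated with the Gene Ontology term RNA binding. At the lower edge of the group stood ZNF10 with a mean of 103.25 counts, ZNF470 with 107 and ZNF135 with 108.5. Just outside it lay ZNF346 with 99, ZNF132 with 98.75 and ZNF891 with 98.25. A further 14 rows without a name in the table reached the minimum and have a ZNF symbol in an Ensembl identifier table, but by the naming rule they are not counted.

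Levels between genes were compared in FPKM, counts relative to gene length and to the total of the library. The median of the 139 genes was 9.04 FPKM, close to the 9.95 FPKM of all rows with the same minimum count, and the middle of the distribution ran from 4.05 FPKM at the lower quartile to 17.3 FPKM at the upper. A level above 10 FPKM was found in 63 genes, and ZNF461 was the only one below 1 FPKM, at 0.956. The distribution had a few genes far above the rest: the 10 with the highest FPKM held 35.3% of all counts of the group.

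The most abundant was ZNF622 (ENSSSCG00000016793, chromosome 16: 5699094 to 5714377, minus strand), a maturation factor of the large ribosomal subunit. It was at 316 and 268 FPKM in Bobcat339 embryos, against 343 and 229 FPKM in controls. Control 1 was the highest and control 2 the lowest of the 4, so the groups overlapped. ZNF648 (ENSSSCG00000015544, chromosome 9: 123507751 to 123589817, minus strand) followed with 178 and 220 FPKM with Bobcat339 and 147 and 252 FPKM in the controls. Here control 1 was the lowest and control 2 the highest. ZNF574 (ENSSSCG00000003037, chromosome 6: 49834904 to 49837595, minus strand) had 141 and 185 FPKM in Bobcat339 embryos, against 179 and 153 FPKM in controls.

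After a gap came ZNF283 with a mean of 83.6 FPKM and ZNF639 with 76.1 FPKM. ZNF207, also known as BuGZ, which binds the checkpoint protein BUB3 and takes part in spindle assembly, was at 56.0 and 62.4 FPKM with Bobcat339 and 55.9 and 46.0 FPKM in the controls. ZNF215 averaged 54.0 FPKM, the RNA-binding protein ZNF106 50.7 FPKM and ZNF280A 50.3 FPKM. ZNF217, a partner of histone deacetylase and CoREST complexes, closed the first 10 at 46.2 FPKM. Neighbours in this order did not differ beyond their spread between libraries: from ZNF207 to ZNF217 the 4 libraries of each gene overlapped those of the next. The same holds for the steps from ZNF622 to ZNF648 and from ZNF648 to ZNF574, whereas every library of ZNF574 stood above every library of ZNF283, and every library of ZNF639 above every library of ZNF207.

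**Figure D1:**
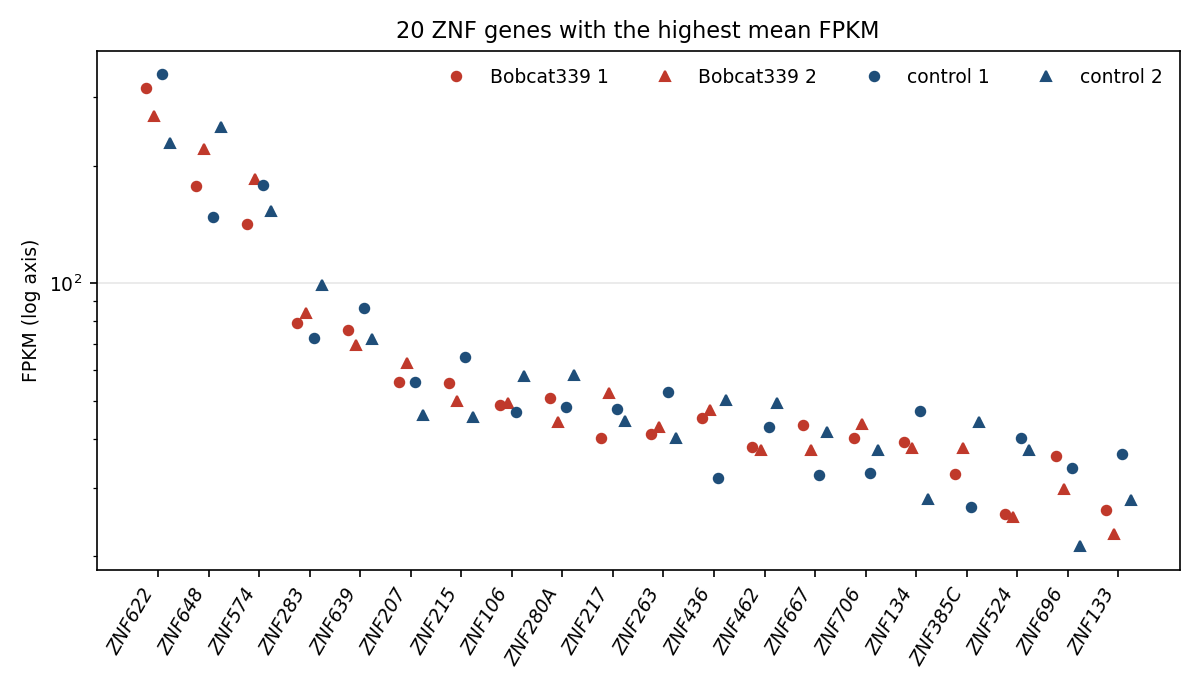
FPKM on a log axis of the 20 expressed ZNF genes with the highest mean, with 1 point for each library (red Bobcat339, blue control; circle replicate 1, triangle replicate 2). ZNF622, ZNF648 and ZNF574 stand above the rest, and the blue points of several genes lie farther apart than the red ones.

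The choice of length changes part of this order. The FPKM values imply a gene length that is shorter than the deposited length column in 100 of the 139 genes and equal to it in 39. When counts were divided by the deposited length instead, 6 of the 10 genes with the highest FPKM were still among the first 10.

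Chromosome 6 carried the largest share of the genes. It held 41 of the 139 (29.5%), against 9.98% of all rows with a mean of at least 100 counts. The members lay on 18 chromosomes in all, and chromosomes 1 and 14 followed with 12 each. Pig chromosome 6 shares a large block of genes with the long arm of a human chromosome known for its zinc finger clusters. Of the 81 ZNF rows on chromosome 6, 50.6% were expressed at the minimum, and of the 170 elsewhere 57.6%. When ZNF rows at most 1 Mb apart were joined, 11 runs of at least 5 rows resulted. The largest, on chromosome 6 from 59634439 to 63055808, held 30 rows, and 15 of these were among the expressed genes, from 1.72 FPKM for ZNF135 to 38.7 FPKM. The run from 45543133 to 46643808 held 12 rows with 9 expressed, among them ZNF146 and ZNF570, and that from 49699638 to 50937422 held 11 rows with 5 expressed, among them ZNF574 and ZNF283. Genes in the same run could thus differ widely in level. Coordinates are those of the deposited table, and the 115 genes with a RefSeq symbol all overlap the gene of that name in Sscrofa11.1.

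**Figure D2:**
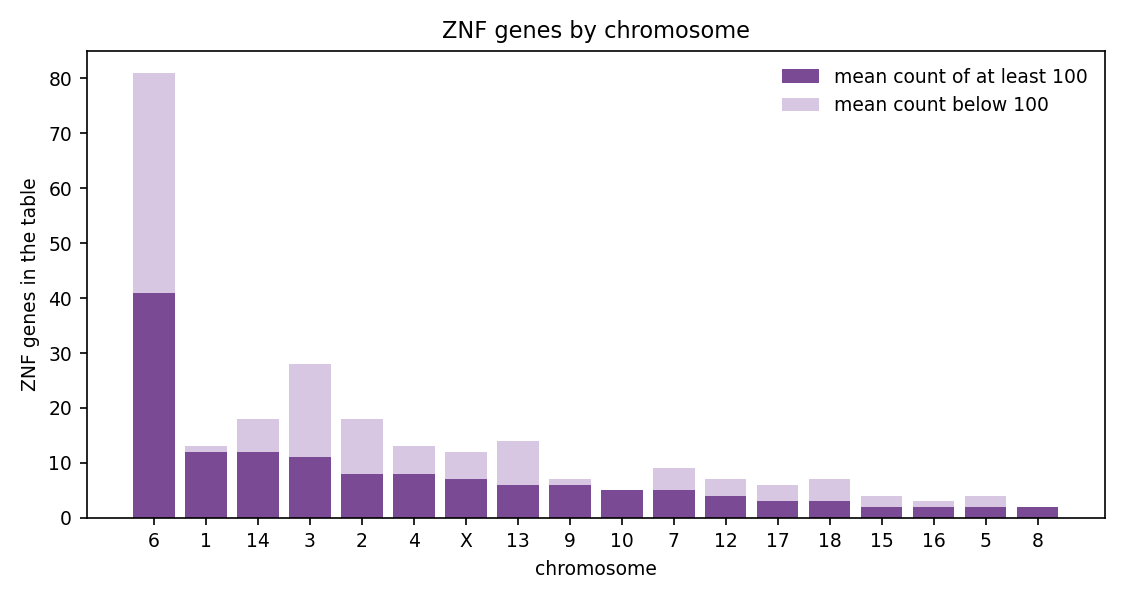
Number of ZNF genes in the table on each chromosome, split into those with a mean of at least 100 counts (dark) and those below (light). Chromosome 6 has 81 ZNF genes, 41 of them in the dark part.

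No expressed ZNF gene passed the test between Bobcat339 and control embryos. Of the 139, 0 had an adjusted p below 0.05 (edgeR's quasi-likelihood test, Benjamini-Hochberg over 18481 rows), where the share of all rows called was 0%. At an unadjusted p under 0.05 the count was again 0 of 139, beside 4.00% of all rows tested and 2.70% of the rows with the same minimum count. DESeq2 called 0 of the 139 (0.0338% of the rows it adjusted) and limma-voom 0 (0% of all rows), and at an unadjusted p under 0.05 each had 0 of the 139, beside 2.85% of all rows with DESeq2 and 3.49% with limma-voom. All fold changes were below 2-fold: the log2 fold change ran from −0.74 (ZNF671) to 0.44 (ZNF280C), while 5.51% of all rows tested lay past 1 in size. The smallest edgeR adjusted p of the group was 0.999.

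The median log2 fold change was −0.047 for the ZNF genes, beside −0.024 for all rows tested and −0.012 for rows with the same minimum count. Of the 139 genes 86 (61.9%) were below 0, beside 52.9% of all rows. These counts describe a list whose members are not independent replicates. The 95% interval of the log2 fold change lay entirely between −1 and 1 in 108 genes, so that for these a change of 2-fold or more lies outside the interval, and it reached past 1 in size in the other 31. The median standard error was 0.32.

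**Figure D3:**
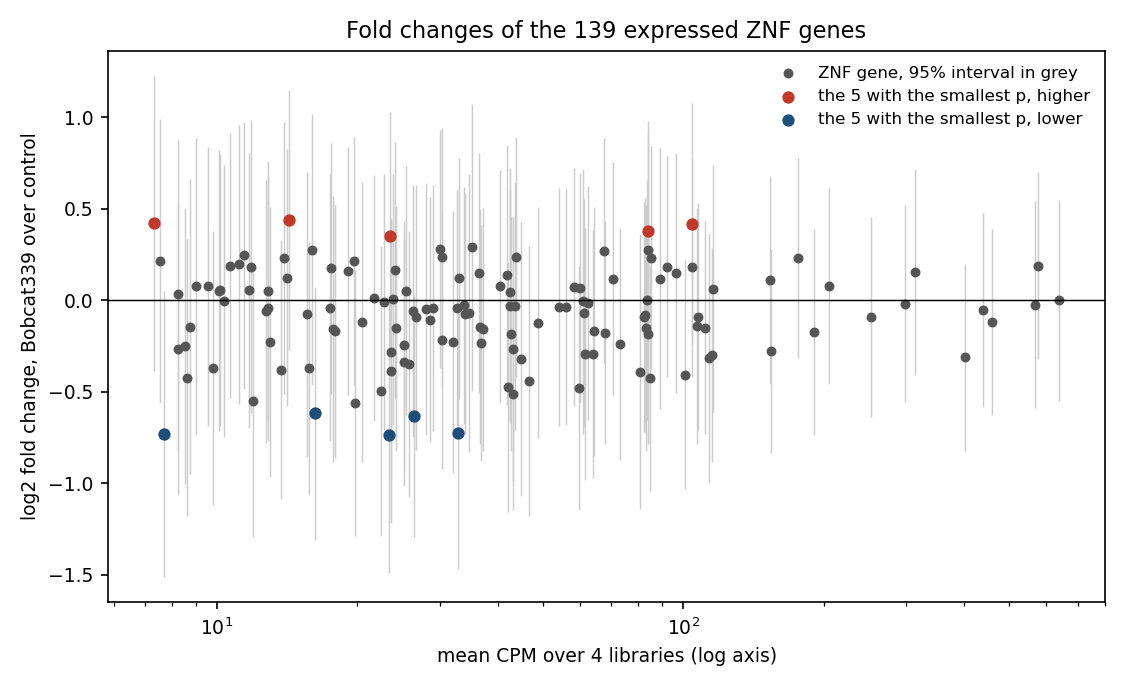
Log2 fold change of Bobcat339 over control against mean CPM (log axis) for the 139 genes, with 95% intervals in grey; coloured points mark the 5 smallest p in each direction. All points lie between −0.74 and 0.44.

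The groups did not overlap at 35 of the 139 genes, beside 29.3% of all rows tested and 26.3% of the rows with the same minimum count. In 14 of these both Bobcat339 libraries lay above both controls (13.3% of all rows) and in 21 they lay below (16.0% of all rows). The share of 25.2% among the ZNF genes is near that background.

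In the lower direction the smallest p belonged to ZNF146, ZNF671, ZNF524, ZNF135 and ZNF827. The first 4 of them lie on chromosome 6, which carries 41 of the 139 genes (29.5%). Whether these genes differ from that share was not tested. ZNF146 (ENSSSCG00000025355, chromosome 6: 45575755 to 45599448, plus strand), a protein made almost entirely of zinc fingers, had 30.1 and 19.4 CPM in Bobcat339 embryos, against 51.5 and 30.4 CPM in controls. Bobcat339 1 was almost as high as control 2. Its log2 fold change was −0.73 (SE 0.35; 95% interval −1.47 to 0.014; edgeR adjusted p = 0.999). ZNF146 overlaps ZNF565 on the other strand, and since no source used here gives the strand setting of the counting, their reads cannot be told apart. ZNF671 (chromosome 6: 62496644 to 62727021, plus strand) showed the same order of libraries, with 21.4 and 13.6 CPM with Bobcat339 and 36.4 and 21.8 CPM in the controls, and a log2 fold change of −0.74 (SE 0.36). Its interval overlaps 7 other rows, 3 of them with a higher mean count.

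In ZNF524, ZNF135 and ZNF827 the replicates were closer to each other. ZNF524 (ENSSSCG00000024661, chromosome 6: 59723150 to 59727510, plus strand), described in human cells as a telomere-binding protein, was at 21.0 and 20.4 CPM in Bobcat339 embryos, against 33.9 and 30.3 CPM in controls. Its mean was 20.7 ± 0.409 CPM with Bobcat339 and 32.1 ± 2.55 CPM in the controls (SD, n = 2 each), and the log2 fold change was −0.63 (95% interval −1.30 to 0.027). ZNF827 (ENSSSCG00000009037, chromosome 8: 82596676 to 82783675, plus strand), which recruits the NuRD complex to telomeres in some human tumour cells, averaged 12.8 ± 0.933 CPM with Bobcat339 and 19.6 ± 1.20 CPM in the controls (SD, n = 2 each; log2 fold change −0.62). ZNF135 had 6.18 and 5.38 CPM with Bobcat339 and 10.9 and 8.35 CPM in the controls. In these genes both Bobcat339 libraries lay below both controls, yet none passed (edgeR adjusted p = 0.999 each).

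Among genes higher with Bobcat339 the first 5 by p were ZNF407, ZNF496, ZNF280C, ZNF10 and ZNF317. ZNF407 (ENSSSCG00000033971, chromosome 1: 149090512 to 149517284, minus strand) had 127 and 112 CPM in Bobcat339 embryos, against 116 and 62.6 CPM in controls. Only control 2 stood apart, and the groups overlapped. The log2 fold change was 0.42 (95% interval −0.24 to 1.08; edgeR adjusted p = 0.999). ZNF496 (ENSSSCG00000036756, chromosome 2: 57053597 to 57097824, plus strand), whose mouse counterpart binds the histone methyltransferase NSD1, had 87.0 and 102 CPM with Bobcat339 and 79.0 and 66.5 CPM in the controls, with a log2 fold change of 0.38. ZNF280C, a factor of DNA break repair, averaged 16.4 ± 0.413 CPM with Bobcat339 and 12.1 ± 2.18 CPM in the controls (SD, n = 2 each). ZNF10, the source of the KRAB domain used in engineered repressors, had 7.68 and 9.08 CPM in Bobcat339 embryos, against 7.57 and 4.93 CPM in controls.

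**Figure D4:**
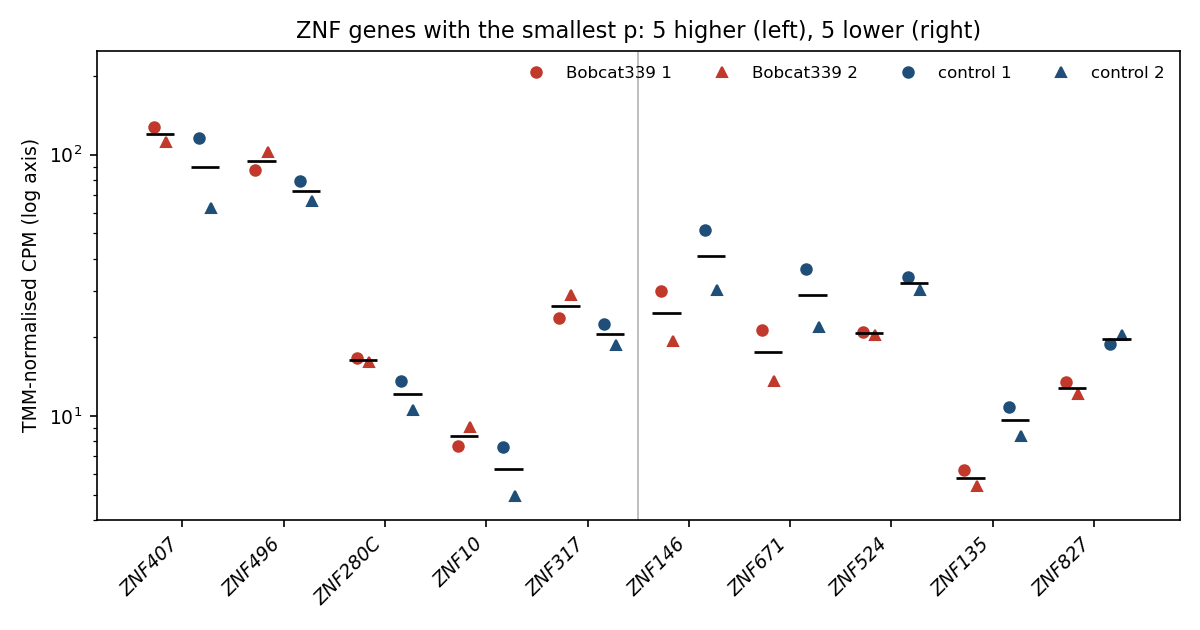
TMM-normalised CPM (log axis) in each library of the genes with the 5 smallest p among those higher (left) and those lower (right), Bobcat339 in red and control in blue; black bars are group means. ZNF524 and ZNF827 have replicates close together, whereas ZNF146 and ZNF671 have replicates spread in both groups.

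Which control library was used decided the few calls that a smaller comparison gave. Without control 1, ZNF407 (log2 fold change 0.93, edgeR adjusted p = 0.00325) and ZNF322 (0.75, edgeR adjusted p = 0.0403) passed, 2 of the 139 beside 2.92% of all rows. Without control 2, ZNF146 (−1.02), ZNF671 (−1.02) and ZNF629 (−0.86) passed, 3 of the 139 beside 2.47% of all rows, with edgeR adjusted p of 0.0331, 0.0413 and 0.0343. No gene was in both sets, and ZNF629 and ZNF322 turned their sign when the other control was left out (0.38 and −0.28). When the rows of the comparison with all libraries were kept in place of a new filter, an alternative added after the data were seen, 0 of the 139 passed without control 1 (edgeR, 0.0595% of all rows) and 5 without control 2 (4.22% of all rows). With a lone control library its spread is assumed to be that of the Bobcat339 pair. Without either Bobcat339 library 0 of the 139 passed (edgeR), beside 0% of all rows.

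The spread between replicates was larger in the control pair than in the Bobcat339 pair. The 2 Bobcat339 libraries differed by more than 2-fold at 0 of the 139 genes, beside 1.18% of the rows with the same minimum count, and the 2 control libraries at 6 genes (4.32%), beside 9.35% of those rows. The median size of the log2 difference came to 0.20 within the Bobcat339 pair, against 0.45 within the controls. Over the rows with the same minimum count these medians were 0.18 and 0.45, so the wider control spread is not particular to the ZNF genes. Bobcat339 1 was above Bobcat339 2 at 88 genes (63.3%), with a median difference of 0.088, beside 49.5% of all rows tested and 55.0% of the rows with the same minimum count. Control 1 was above control 2 at 90 genes (64.7%), with a median difference of 0.28. Over all rows tested the median difference between the controls was −0.0076 and control 1 was the higher at 49.8%, and over rows with the same minimum count the values were 0.035 and 51.9%. The ZFP, ZSCAN, ZKSCAN and ZBTB genes with that minimum leaned the same way, with control 1 higher at 59.5% and a median difference of 0.16, and with Bobcat339 1 higher at 69.0%. Among the 119 genes labelled zf-C2H2 the median difference between the controls was 0.31, and among the other 20 it was −0.011. No test of these differences between lists was made.

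All 6 genes with more than a 2-fold difference between the controls were higher in control 1: ZNF629, ZNF565, ZNF789, ZNF322, ZNF197 and ZNF25. ZNF629 (chromosome 3: 17610095 to 17619000, plus strand) had 75.7 and 64.2 CPM with Bobcat339 and 130 and 53.6 CPM in the controls, so that both Bobcat339 libraries lay between the controls. ZNF565 had 25.9 and 15.0 CPM in Bobcat339 embryos, against 37.0 and 16.4 CPM in controls. ZNF789 had 38.5 and 29.2 CPM with Bobcat339 and 48.2 and 22.9 CPM in the controls, the order of libraries seen in ZNF629. ZNF322 had 105 and 80.5 CPM in Bobcat339 embryos, against 116 and 55.3 CPM in controls.

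In the opposite direction, the largest differences between the controls were those of ZNF514, ZNF648, ZNF618, ZNF2 and ZNF385C. ZNF514 had 47.4 and 40.5 CPM with Bobcat339 and 28.2 and 51.6 CPM in the controls, and its neighbour ZNF2 had 40.1 and 46.1 CPM in Bobcat339 embryos, against 32.3 and 51.3 CPM in controls. For ZNF618, which is known to work with UHRF2 in the recognition of 5-hydroxymethylcytosine, the product of the TET enzymes, the values were 17.3 and 14.7 CPM with Bobcat339 and 18.1 and 29.1 CPM in the controls. The log2 fold change of ZNF618 was −0.56 (95% interval −1.29 to 0.16; edgeR adjusted p = 0.999), and control 1 was close to Bobcat339 1. ZNF385C overlaps NKIRAS2, which has more counts, and its values are uncertain for that reason.

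**Figure D5:**
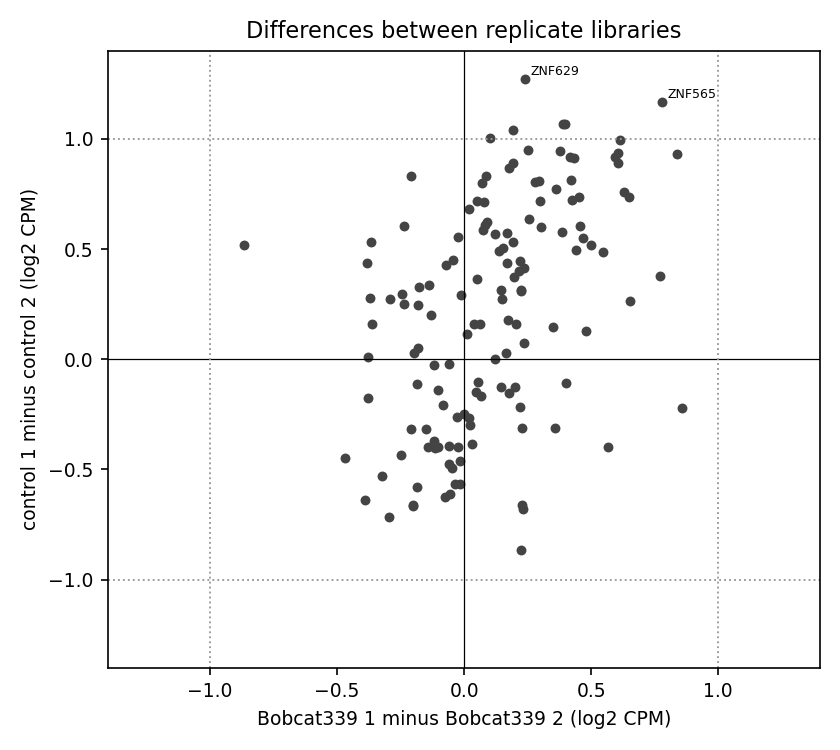
Log2 CPM difference between the control libraries against that between the Bobcat339 libraries for the 139 genes; dotted lines mark a 2-fold difference. The points stretch farther along the vertical axis than the horizontal one, and those past 2-fold lie at the top.

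The role lists share members: ZNF706, ZNF451 and ZNF202 are also counted in the list of chromatin and transcription factors. Of the genes listed for roles in RNA and the ribosome, 7 belong to the group, and 0 of 7 passed. Their median log2 fold change was 0.065, and they ran from −0.12 for ZNF106 to 0.28 for ZNF638, an RNA-binding protein that also takes part in silencing of retroviral DNA. For ZNF622 the 95% interval of the log2 fold change ran from −0.55 to 0.55, centred at 0 within rounding. ZNF473, which acts in histone pre-mRNA processing, was at 135 and 101 CPM in Bobcat339 embryos, against 148 and 78.1 CPM in controls. ZNF706, a small protein that represses KLF4 in mouse embryonic stem cells, had 183 and 197 CPM with Bobcat339 and 154 and 169 CPM in the controls. Both Bobcat339 libraries of ZNF706 lay above both controls, with a log2 fold change of 0.23 (95% interval −0.31 to 0.78).

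Of the genes with roles at the spindle or in genome stability 5 belong to the group, with 0 passing and log2 fold changes between −0.32 (ZNF384, a binding partner of the Ku repair proteins) and 0.44 (ZNF280C). ZNF207 had 585 and 644 CPM in Bobcat339 embryos, against 602 and 476 CPM in controls (log2 fold change 0.19; 95% interval −0.32 to 0.70). ZNF451 was among the steadiest genes, with 206 and 215 CPM with Bobcat339 and 198 and 201 CPM in the controls. ZNF668 had 53.4 and 61.8 CPM in Bobcat339 embryos, against 90.4 and 50.8 CPM in controls, control 1 alone being high.

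The list of chromatin and transcription factors held 29 expressed genes, of which 0 passed, 19 were below 0 and the median log2 fold change was −0.072. ZNF462, which binds heterochromatin proteins, averaged 359 ± 8.35 CPM with Bobcat339 and 446 ± 32.5 CPM in the controls (SD, n = 2 each), with a log2 fold change of −0.31 (95% interval −0.82 to 0.20). ZNF687, a partner of ZMYND8, had 37.6 and 33.6 CPM with Bobcat339 and 51.3 and 50.3 CPM in the controls (log2 fold change −0.51), and it overlaps a row with more counts. In ZNF462 and ZNF687 the groups did not overlap. ZNF410, known for activating CHD4 and few other genes in human and mouse cells, was at 114 and 87.7 CPM in Bobcat339 embryos, against 165 and 85.7 CPM in controls. CHD4, a remodeller of the NuRD complex, was itself at 85.1 and 86.8 CPM with Bobcat339 and 85.8 and 77.5 CPM in the controls. ZNF410 was high in control 1 alone, and CHD4 varied little.

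A list of 15 ZNF genes was drawn up for possible control of repeats or imprints, and the role of each was not checked here. Of these genes 7 were expressed, with 0 passing, 5 above 0 and a median log2 fold change of 0.19. ZNF445 (ENSSSCG00000024556, chromosome 13: 27748438 to 27783513, minus strand), which maintains methylation at imprinted regions together with ZFP57, had 96.2 and 100.3 CPM in Bobcat339 embryos, against 72.2 and 100.5 CPM in controls. Control 1 was low, the other 3 libraries were alike, and the log2 fold change was 0.19 (95% interval −0.42 to 0.79). ZNF570 had 70.9 and 77.0 CPM with Bobcat339 and 53.5 and 69.3 CPM in the controls. ZNF202, a repressor of lipid genes in human cells, had 14.6 and 9.23 CPM in Bobcat339 embryos, against 11.4 and 9.42 CPM in controls. ZNF75D had 22.6 and 14.7 CPM with Bobcat339 and 35.0 and 17.5 CPM in the controls, and it overlaps a row with more counts.

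The partners of KRAB proteins were read from a separate list of 42 symbols for co-repression and repeat silencing, of which 39 were tested and 0 passed. The median log2 fold change of the 39 was 0.025, with 21 above 0 and 18 below. TRIM28, the platform that KRAB domains bind, was at 15.8 and 14.2 CPM in Bobcat339 embryos, against 17.1 and 11.6 CPM in controls (log2 fold change 0.063; 95% interval −0.66 to 0.79). SETDB1 was at 165 and 153 CPM with Bobcat339 and 152 and 184 CPM in the controls. The groups overlapped in both genes. Among the partners with a high mean CPM were the histone-binding proteins RBBP4 (565 CPM) and RBBP7 (337 CPM), the HUSH subunit PPHLN1 (380 CPM), the modifier SUMO2 (261 CPM) and the deacetylase HDAC2 (224 CPM), and their log2 fold changes lay between −0.13 and 0.25.

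At an unadjusted p under 0.05 there were 2 of the 39 partners, beside 4.00% of all rows. ATF7IP2, related to a stabiliser of SETDB1, had 52.9 and 68.9 CPM in Bobcat339 embryos, against 43.3 and 28.8 CPM in controls, with a log2 fold change of 0.75 (95% interval 0.078 to 1.43; edgeR adjusted p = 0.999). SUV39H1, a histone methyltransferase of constitutive heterochromatin, had 13.5 and 13.4 CPM with Bobcat339 and 25.0 and 19.8 CPM in the controls, with a log2 fold change of −0.74 (95% interval −1.43 to −0.041; edgeR adjusted p = 0.999). ZFP57, the imprint-protecting KRAB protein, had 17.1 and 15.0 CPM in Bobcat339 embryos, against 29.4 and 21.8 CPM in controls, with a log2 fold change of −0.68 (95% interval −1.37 to 0.016; edgeR adjusted p = 0.999). In all 3 genes, named for their small p, the groups did not overlap, and none passed over all rows. Among the 39 partners the groups did not overlap at 12 (30.8%), near the 29.3% of all rows tested. HDAC1 followed in the higher direction with a log2 fold change of 0.34.

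The most similar genes by name, 42 ZFP, ZSCAN, ZKSCAN and ZBTB rows with a mean of at least 100 counts, gave close values. Their median was 9.26 FPKM, beside 9.04 FPKM for the ZNF genes, and their median log2 fold change was −0.037, beside −0.047. Of the 42, 0 passed and 1 had an unadjusted p under 0.05, ZFP37, with 17.0 and 10.6 CPM with Bobcat339 and 29.4 and 25.1 CPM in the controls (log2 fold change −0.98, edgeR adjusted p = 0.999). ZFP37 was named after its value was seen. The 42 rows were grouped by name alone, and their finger types were not checked. The difference between the 2 lists was not tested.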

How the data were processed

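RNA of porcine parthenogenetic 4-cell embryos was sequenced from Smart-seq2 libraries, 2 with Bobcat339 and 2 controls, grouped by their titles. Raw counts of reads for each gene and FPKM values were deposited, per the file headers. Per the submitters' processing notes DESeq2 1.16.1, HTSeq, HISAT2 2.0.5 and Trimmomatic were used, with no roles stated, and the build is Sscrofa10.2, although the coordinates follow Sscrofa11.1. In 120 rows start and end were exchanged in the table and were put in order. Of the 139 genes 50 overlap another row, 42 of them one on another strand.

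Counts were tested with edgeR 4.0.16 under R 4.3.3 (filterByExpr at 10 counts, TMM, glmQLFTest, Benjamini-Hochberg at 0.05), which kept 18481 rows at a common biological coefficient of variation of 26.4%. All 139 genes passed the filter. Printed CPM are TMM-normalised, and log2 differences between libraries use a prior count of 2. Alternatives were DESeq2 1.42.0, limma-voom (limma 3.58.1), other scalings, no filter, a replicate block, each library left out and a minimum of 500 counts. The fit was also run on simulated counts, with planted changes larger than any in the 139 genes and the same spread for every row. That run does not show how well smaller changes would be found. The genes and lists were chosen with earlier results of these data known. Genes were named by fixed rules: the 10 highest in FPKM, the 5 smallest p and the 5 largest differences between controls in each direction, the first 4 of each role list in FPKM, the genes at the edge of the minimum, and of the co-repressors the 6 highest and the 2 smallest p in each direction. ZNF638, ZNF687, ZNF410 and other genes named beyond these were chosen after their values were seen. A gene that the rule for co-repressors names is not reported here. Protein and promoter sequences were not used here.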

Additional observations from a re-analysis of the deposited data

How the results depend on the processing

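Each group had 2 libraries, and the control replicates lay farther apart than those of Bobcat339. Whether this spread accounts for the lack of calls was not tested. The count of ZNF genes passing stayed at 0 under both other scalings, without a filter, with DESeq2, with limma-voom, with the replicate block and at a minimum of 500 counts. With a library left out it lay between 0 and 5, the last without control 2 when the rows of the full fit were kept, an alternative chosen after seeing the data. Those 5 were ZNF146, ZNF200, ZNF629, ZNF671 and ZNF75D. Over all rows the count was 44 with the replicate block and 6 with DESeq2, and it lay between 0 and 780 with a library left out. The same replicate numbers do not mark a shared origin in the labels; deviations of same-numbered libraries from their group means had a correlation of 0.29 across 10827 rows. The block gave 3 ZNF genes at an unadjusted p under 0.05, beside 995 of the 18481 rows, and a median log2 fold change of −0.032. The median log2 fold change of the 139 genes was −0.047 with all libraries. It lay between −0.15 and 0.067 with a library left out, so its sign depended on the libraries used, and between −0.059 and −0.022 otherwise. Groups did not overlap at 32 to 34 genes under the other scalings. Of the 10 genes with the highest FPKM, 6 were also first by the deposited length. Among named genes the log2 fold change of some turned its sign with a library left out, and the cause was not tested: ZNF648 (−0.34 to 0.41), ZNF574 (−0.20 to 0.12), ZNF217 (−0.16 to 0.15), ZNF385C (−0.33 to 0.37), ZNF473 (−0.29 to 0.60), ZNF322 (−0.28 to 0.75), ZNF202 (−0.18 to 0.55), ZNF197 (−0.37 to 0.66), ZNF622 (−0.25 to 0.35), ZNF215 (−0.32 to 0.23), ZNF384 (−0.68 to 0.23), ZNF789 (−0.47 to 0.56), ZNF565 (−0.84 to 0.32), ZNF2 (−0.25 to 0.44), ZNF639 (−0.27 to 0.018), ZNF263 (−0.35 to 0.072), ZNF668 (−0.62 to 0.18), ZNF445 (−0.034 to 0.47), ZNF514 (−0.23 to 0.67), ZNF629 (−0.86 to 0.38), ZNF75D (−0.87 to 0.092), ZNF283 (−0.27 to 0.15), ZNF106 (−0.24 to 0.043). Genes at nearly 0 also turned with DESeq2 size factors ZNF622 (0.019) and ZNF217 (0.000116), with no scaling ZNF622 (0.029) and ZNF217 (0.0082), with no filter ZNF622 (0.034) and ZNF217 (0.0052), with the replicate block ZNF622 (0.029) and ZNF648 (0.014) and ZNF385C (0.0024) and ZNF789 (0.0089), with limma-voom ZNF622 (0.030) and ZNF648 (0.013) and ZNF385C (0.0030) and ZNF789 (0.015), with DESeq2 ZNF622 (0.019) and ZNF217 (0.000115).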
